A study of Mus musculus with 8 samples.

Results

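Lipid droplet and fatty acid handling genes were examined in AtT20 cells, a mouse line derived from a pituitary corticotroph tumor, with and without the synthetic retinoid X receptor (RXR) pan-agonist HX630. The set was 10 genes chosen by function, *Plin2*, *Plin3*, *Plin4*, *Plin5*, *Pnpla2*, *Fabp3*, *Fabp5*, *Angptl4*, *Lpl* and *Cd36*, of 19751 genes with a named probe on the array. Their 12 probes were found through the RefSeq accession that the array gives each probe. A total of 4 control samples and 4 HX630 samples were measured, each on 1 Agilent mouse array with 1 color. All wells held the same AtT20 cells in DMEM with 1% stripped FBS for 48 hr, and the HX630 wells also held the agonist at 10 μM. The agonist stock was made in DMSO, and the labels do not say whether control wells received the solvent. Nothing states that the 4 samples of a group came from separate cultures, so p-values measure only the spread between these samples, which may be technical.

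A lipid droplet is a store of neutral lipid under a single phospholipid layer, and the perilipins (*Plin* genes) are the proteins that coat this layer and govern how lipases reach the store. RXR acts as a pair with other nuclear receptors. In its pair with a peroxisome proliferator-activated receptor (PPAR), which fatty acids activate, an RXR ligand alone can switch on transcription, and in liver, muscle and fat several of the genes described here are well known targets of that pair. The pair binds DR1 elements, tandem copies of a short motif separated by a single base.

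The 75th percentile of processed intensity was 1335 to 1863 on the control arrays and 1803 to 1899 on the HX630 arrays, and 69.7 to 73.5% of probes stood well above background. Correlations over all tested probes were 0.994 to 0.998 within a group and 0.978 to 0.984 between groups. The control arrays were on 1 slide and 1 scan and the HX630 arrays on the other, so the treatment cannot be told apart from slide or scan. Of 8 corticotroph markers, 7 were well above background on every array, and *Avpr1b* was on none. Summed as linear signal over the 75th percentile, these markers were at 301 to 376 in control and 218 to 228 with HX630. Most of this sum came from *Pomc* (8.03 on the log2 scale in control) and *Pcsk1* (6.16). Singly, 3 of the 7 tested markers were higher with HX630 and 4 were lower. The log2 fold change was 1.11 for *Crhr1* and 0.72 for *Neurod1*, against -2.06 for *Pcsk1* and -0.45 for *Pomc*. The adipocyte list, which shares *Plin1* and *Cidec* with the droplet genes below, stood at 0.0984 to 0.162 and 0.0882 to 0.123, with *Adipoq* above background on no array. Pituitary hormone markers of other cells stood at 0.134 to 0.255 and 0.161 to 0.185, with *Prl*, *Cga* and *Tshb* above background on none. Macrophage markers, 5 of 5 above background, stood at 5.46 to 7.59 and 5.27 to 7.32. Most of this sum came from 1 *Itgam* probe, at 2.56 on the log2 scale in control and 2.55 with HX630. The other *Itgam* probes were at -4.67 and -4.08 in control. Singly, 1 of the 5 macrophage markers was higher with HX630 and 4 were lower, *Csf1r* the most (log2 fold change -0.72). Endothelial markers (2.90 to 3.59 against 2.30 to 2.78, *Cdh5* and *Tek* on none, *Gpihbp1* shared with the lipoprotein lipase group) and muscle markers (0.183 to 0.235 against 0.141 to 0.173) did not overlap between the groups, and their part in the results was not tested. Most of the endothelial sum came from a *Kdr* probe at 1.54 in control, while the other *Kdr* probe was at -6.57.

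Among the 10 genes, *Plin3* and *Plin5* rose with HX630 past both limits given below, adjusted p and fold change, and none fell past both. *Plin2* fell by limma's adjusted p (1.12e-04) but by less than the fold limit. A further 2, *Lpl* and *Cd36*, could not be measured. In RNA from a whole culture, fewer cells with a transcript and less of it per cell cannot be told apart. A gene was called when limma, fitted over all 28553 tested probes, gave an adjusted p under 0.01 with a fold change over 1.5, which is 0.58 on the log2 scale. Of the 8 tested genes 2 were called up, against 8.38% of the 15320 genes tested, and 0 were called down, against 11.2%. In either direction the share was 25%, against 19.5% of all genes tested. An adjusted p under 0.01 with no fold limit was reached by 4 of the 8 (51.2% of all genes tested). The 8 control and HX630 arrays did not overlap for 5 of the 8 genes (61.5% of all genes tested). The median log2 fold change over the 8 was 0.04, against -0.03 over all genes tested, with 4 genes higher and 4 lower. Levels below are processed signals on the log2 scale after subtraction of their array's 75th percentile, so that 0 is the brightness of the probe at that percentile, and they are not compared between genes.

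**Figure D1:**
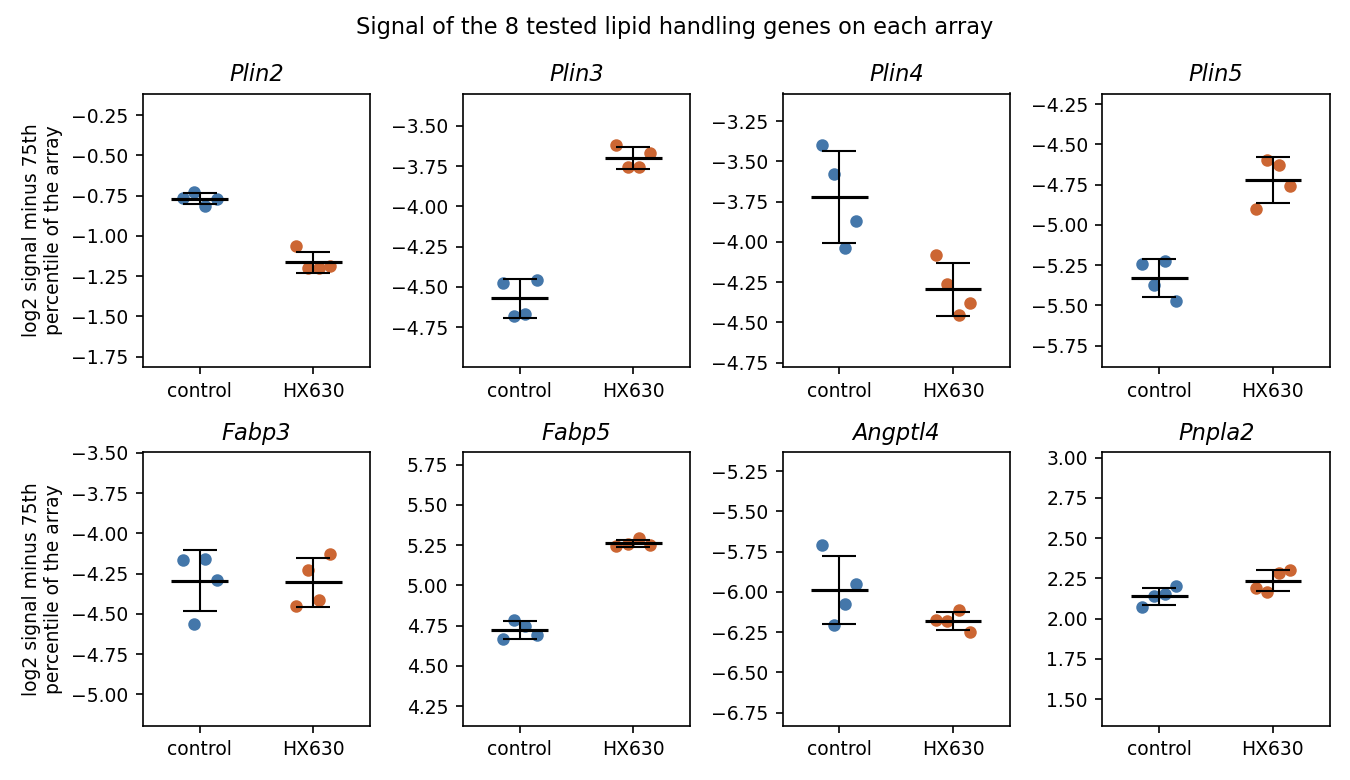
Log2 signal relative to the 75th percentile (y axis) of the 8 tested genes on the 4 control and 4 HX630 arrays. Points are arrays, thick bars are means, thin bars are standard deviations, and each panel spans the same height. *Plin3*, *Plin5* and *Fabp5* lie higher on every HX630 array, *Plin2* and *Plin4* lie lower, and *Fabp3*, *Angptl4* and *Pnpla2* overlap.

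The larger of the 2 called rises was that of *Plin3* (also called TIP47), which coats small, nascent droplets and is found in the cytosol when lipid is scarce. Its signal was -4.48, -4.68, -4.67 and -4.45 on the control arrays. On the HX630 arrays it was -3.62, -3.76, -3.76 and -3.67. The gap between the groups was wider than the range of either. The log2 fold change was 0.87 (SE 0.067, 95% confidence interval 0.72 to 1.03), a 1.83-fold rise (limma adjusted p = 1.80e-05). The processed intensity of this probe was 53.0 to 76.7 in control and 135 to 150 with HX630. As read by the scanner, with no background taken off, the spot was at 98.0 to 118 and 170.0 to 201, while the median of 153 negative control spots was 35.5 to 50.0 on the 8 arrays.

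The other perilipin that rose was *Plin5*, the droplet coat protein of oxidative tissues, which tethers droplets to mitochondria and binds *Pnpla2* protein. Control arrays gave -5.24, -5.38, -5.22 and -5.47, and HX630 arrays gave -4.90, -4.59, -4.63 and -4.76. Every HX630 array was above every control array. The log2 fold change was 0.61 (SE 0.086, interval 0.41 to 0.81), a 1.52-fold rise (limma adjusted p = 5.09e-04), which is just over the fold limit. The call was lost without control replicate 4 (0.56), HX630 replicate 2 (0.57) or HX630 replicate 3 (0.58), by the fold limit and not by the adjusted p. The spot as scanned was dim, at 77.0 to 94.0 in control and 102 to 110 with HX630.

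Both calls were lost under a setting that changed the starting signal, the background correction and an added offset together. Which of these changes removed the calls was not tested. With normexp background correction of the scanned spot intensity in place of the processed signal, *Plin3* was at 0.50 (adjusted p = 0.0374) and *Plin5* at 0.02 (adjusted p = 0.943), and neither was called. The local background around these spots was 20.5 to 32.

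*Plin2* (adipophilin), the perilipin found on droplets of nearly all cells, was lower on every HX630 array by less than the fold limit. Its signal was -0.76, -0.73, -0.81 and -0.77 in control and -1.07, -1.20, -1.20 and -1.19 with HX630. The groups did not overlap, and HX630 replicate 1 stood apart from the other HX630 arrays on the control side. The log2 fold change was -0.40 (SE 0.042, interval -0.49 to -0.30), or 76.0% of the control level (limma adjusted p = 1.12e-04).

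*Plin4*, a coat protein that is abundant in fat cells and binds nascent droplets, read -3.40, -3.58, -4.04 and -3.87 in control and -4.08, -4.26, -4.46 and -4.38 with HX630. All HX630 arrays were below all control arrays, although control replicate 3 and HX630 replicate 1 were nearly level. The log2 fold change was -0.57 (SE 0.149, interval -0.92 to -0.23), and limma's adjusted p of 0.0114 missed the threshold. Without control replicate 3 the gene was called down (-0.68, adjusted p = 0.00508).

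*Plin3* and *Plin5* are shown with the sequence before their transcription start, since they are the 2 genes of the set that were called. The sequences are the 250 bases upstream of the start in RefSeq's annotation of GRCm38.p6, both on the minus strand, printed 5′ to 3′ in the direction of transcription. Capitals mark that short motif, AGGTCA, searched on both strands. The *Plin3* stretch is chr17:56290512-56290761, and the *Plin5* stretch, at the more upstream of the 2 starts listed for this gene, is chr17:56117549-56117798.
Plin3: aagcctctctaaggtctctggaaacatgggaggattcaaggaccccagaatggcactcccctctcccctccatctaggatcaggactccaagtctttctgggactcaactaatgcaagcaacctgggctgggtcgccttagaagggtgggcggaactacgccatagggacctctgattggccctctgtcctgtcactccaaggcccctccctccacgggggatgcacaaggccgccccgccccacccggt
Plin5: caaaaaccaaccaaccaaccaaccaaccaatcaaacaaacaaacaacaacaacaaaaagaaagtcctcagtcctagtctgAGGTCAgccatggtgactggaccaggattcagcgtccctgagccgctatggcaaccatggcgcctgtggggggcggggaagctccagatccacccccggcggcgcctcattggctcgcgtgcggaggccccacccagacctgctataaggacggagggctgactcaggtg
The AGGTCA motif was found once for *Plin5*, beginning 170 bases before the start, and not for *Plin3* or at the second *Plin5* start. Promoters were listed for 7 of the 10 genes, 8 promoters in all, and not for *Fabp5*, *Angptl4* and *Lpl*. It was also found for *Plin2* (218 bases before the start) and *Cd36* (228 bases), and not for *Plin4*, *Fabp3* or *Pnpla2*. Of all 32851 mouse promoters of this length, 14.0% held it. The full DR1 repeat, AGGTCANAGGTCA with N any base, and ACGTG, the core of the hypoxia response element, were in none of these 8, against 0.0335% and 16.6% of all promoters. A match is a run of letters, not a measured site, and no match speaks only of this window.

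*Plin4* and *Plin5* are direct neighbors on chromosome 17, with *Plin3* further along, and 7 protein-coding genes lie between *Plin5* and *Plin3* in the same annotation. These neighbors were looked at after their values were seen. All 7 were tested, with log2 fold changes from -0.77 to 0.47. None was called up, and *Lrg1* was called down (-0.77, limma adjusted p = 0.00606).

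The perilipins differed from each other in the size and sign of their change. Within each array the log2 signal of a gene was subtracted from that of another, which takes out any scaling of the array, and the control and HX630 means were compared with a two-sided exact permutation test. With 70 regroupings of 8 arrays the smallest p is 0.0286, and p-values were adjusted over the 8 pairs run of 9 planned. The remaining pair, *Angptl4* with *Lpl*, could not be run because *Lpl* was not measured. Relative to *Plin2*, *Plin3* was higher with HX630 by a further 2.41-fold (log2 difference 1.27 in size, SE 0.065) and *Plin5* by 2.01-fold (1.00 in size, SE 0.122). Relative to *Plin4*, *Plin3* was higher by 2.72-fold (1.45, SE 0.153) and *Plin5* by 2.27-fold (1.18 in size, SE 0.205). In each of these 4 pairs the arrays did not overlap, which gives the smallest p this test allows (exact p = 0.0286, adjusted p = 0.0381). Taken singly, 61.5% of all genes tested did not overlap between the groups. No share over other pairs of genes was computed, so such a difference is not shown to be particular to perilipins. The difference between *Plin2* and *Plin4* was 0.18 (SE 0.142, exact p = 0.314). That between *Plin3* and *Plin5* was 0.26 (SE 0.143, exact p = 0.143, adjusted p = 0.163). With normexp the difference between *Plin2* and *Plin5* was -0.45 and no longer passed (exact test, adjusted p = 0.0762), and that between *Plin3* and *Plin5* was 0.48 and did (adjusted p = 0.0457).

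**Figure D2:**
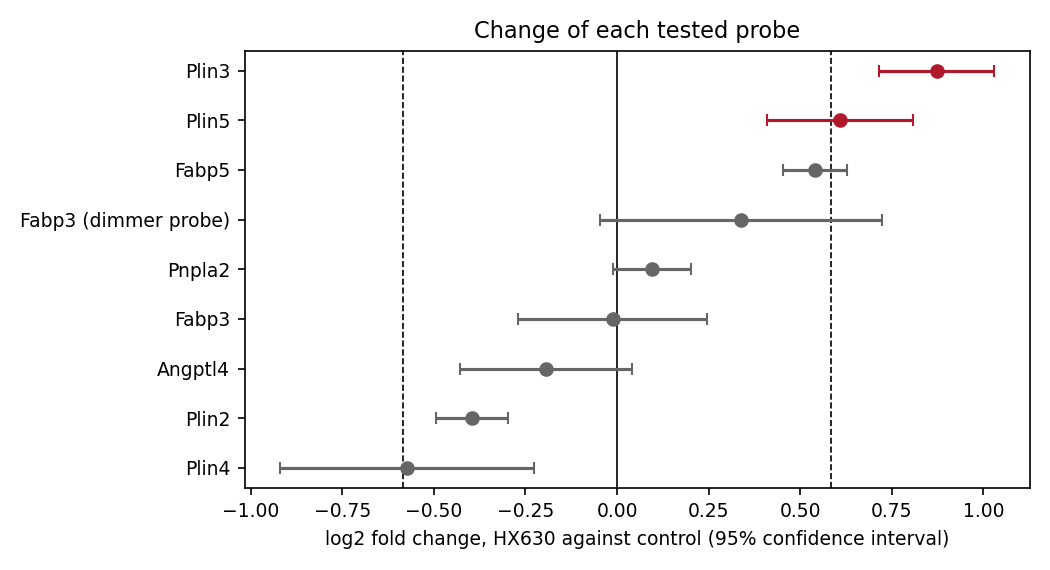
Log2 fold change of HX630 against control (x axis) for the 9 tested probes of the set. Points are limma estimates, bars are 95% confidence intervals, dashed lines mark the 1.5-fold limit, and red marks a call. The interval of *Plin3* lies wholly beyond the limit, while those of *Plin5*, *Fabp5*, *Plin4* and the dimmer *Fabp3* probe cross it.

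*Pnpla2* encodes adipose triglyceride lipase, which starts the breakdown of stored triglyceride. It was at 2.07, 2.14, 2.15 and 2.20 in control and 2.19, 2.17, 2.28 and 2.30 with HX630, and the groups overlapped. Its log2 fold change was 0.10 (SE 0.046, limma adjusted p = 0.113), and its interval of -0.01 to 0.20 lies within the fold limit. Relative to *Pnpla2*, *Plin5* was higher with HX630 by a further 1.43-fold (log2 difference 0.51, SE 0.110, exact p = 0.0286, adjusted p = 0.0381), and with normexp this difference turned to -0.14.

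The fatty acid binding proteins carry fatty acids through the cytosol. *Fabp5*, the epidermal form, which also delivers fatty acids and retinoic acid to nuclear receptors, was at 4.66, 4.79, 4.75 and 4.69 in control. With HX630 it was at 5.24, 5.26, 5.29 and 5.25. The HX630 arrays lay within 0.05 of each other and all above the control arrays. Its log2 fold change of 0.54 (SE 0.037, interval 0.45 to 0.63, limma adjusted p = 9.84e-06) was a 1.45-fold difference, just short of the fold limit. Under quantile scaling it was called (0.71). Median (0.63) and spike-in (0.76) scaling also put it past the limit, but they shift all genes alike, and relative to the median of all genes *Fabp5* was at 0.57 under both and under the 75th percentile. Its processed intensity was 33848 to 49961 in control and 68287 to 72444 with HX630, and no spot was marked saturated.

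*Fabp3*, the heart form, gave no such separation. Its brighter probe read -4.16, -4.56, -4.16 and -4.29 in control and -4.45, -4.23, -4.42 and -4.13 with HX630, with full overlap. This is a log2 fold change of -0.01 (SE 0.111, interval -0.27 to 0.25, limma adjusted p = 0.935), a value so near 0 that its sign changed with the scaling of the arrays. The dimmer probe was well above background on 1 control array and 3 HX630 arrays and gave 0.34 (SE 0.166, adjusted p = 0.116). Set against *Fabp5* within each array, the brighter *Fabp3* probe was lower with HX630 by 1.47-fold (log2 difference -0.55, SE 0.140, exact p = 0.0286, adjusted p = 0.0381). Without any one of the HX630 arrays the adjusted p of this exact test was 0.0762.

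*Angptl4*, a secreted inhibitor of lipoprotein lipase and a PPAR target in many tissues, was above background on all 8 arrays but dim. Control arrays gave -5.71, -6.21, -6.08 and -5.95, and HX630 arrays gave -6.17, -6.18, -6.11 and -6.25. The HX630 arrays were tight and lay inside the lower end of the control range, apart from HX630 replicate 4 just below it. HX630 against control gave a log2 fold change of -0.19 (SE 0.101, interval -0.43 to 0.04, limma adjusted p = 0.134). Its processed intensity was 18.4 to 27.6 in control and 24.9 to 26.5 with HX630, while the lowest probe called above background on an array was at 8.92 to 18.1.

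The other genes at the cell surface were at or below the limit of detection. *Lpl* is lipoprotein lipase, which frees fatty acids from circulating lipoproteins, and has 2 probes. The first was well above background on 1 control and 1 HX630 array, at processed intensities of 10.65 to 19.9 in control and 14.2 to 20.9 with HX630. The second was above background on 0 control and 1 HX630 array, at 4.76 to 7.59 and 4.27 to 24.1. *Cd36*, a receptor that takes up long-chain fatty acids, was above background on 0 of 8 arrays, at 8.31 to 13.5 and 5.40 to 18.1. No fold is given for either gene, and a change in them was not detectable at this signal.

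**Figure D3:**
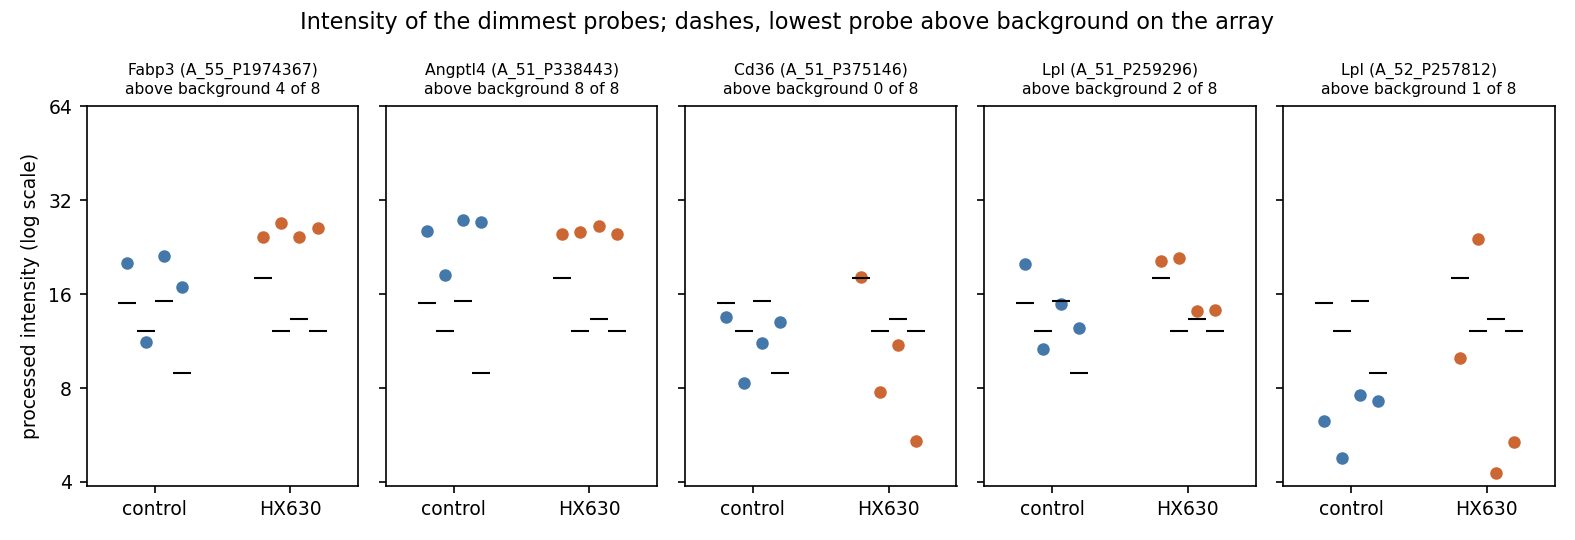
Processed intensity (y axis, log scale) of the 5 dimmest probes of the set on the 4 control and 4 HX630 arrays. Points are arrays and dashes give the lowest intensity among probes well above background on the same array. *Angptl4* lies above the dash on all 8 arrays. The first *Lpl* probe lies above or near it on most, though well above background on only 2 of 8. *Cd36* and the second *Lpl* probe lie below it on most.

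Scalings that subtract 1 value per array shift all genes alike and cannot change the order of the genes. Of the settings that could, quantile scaling gave the same order of the 8 genes and normexp a different one. Scaling to 8 spike-in control probes moved the median of all genes by 0.22 on the log2 scale, from -0.03 to 0.18, so changes under it are read against that median. Relative to the median of all genes, *Plin3* was at 0.91 with the 75th percentile and with spike-in scaling, *Plin5* at 0.64 and *Plin2* at -0.36 with either. Only normexp took *Plin3* and *Plin5* out of the calls among these scalings and corrections.

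**Figure D4:**
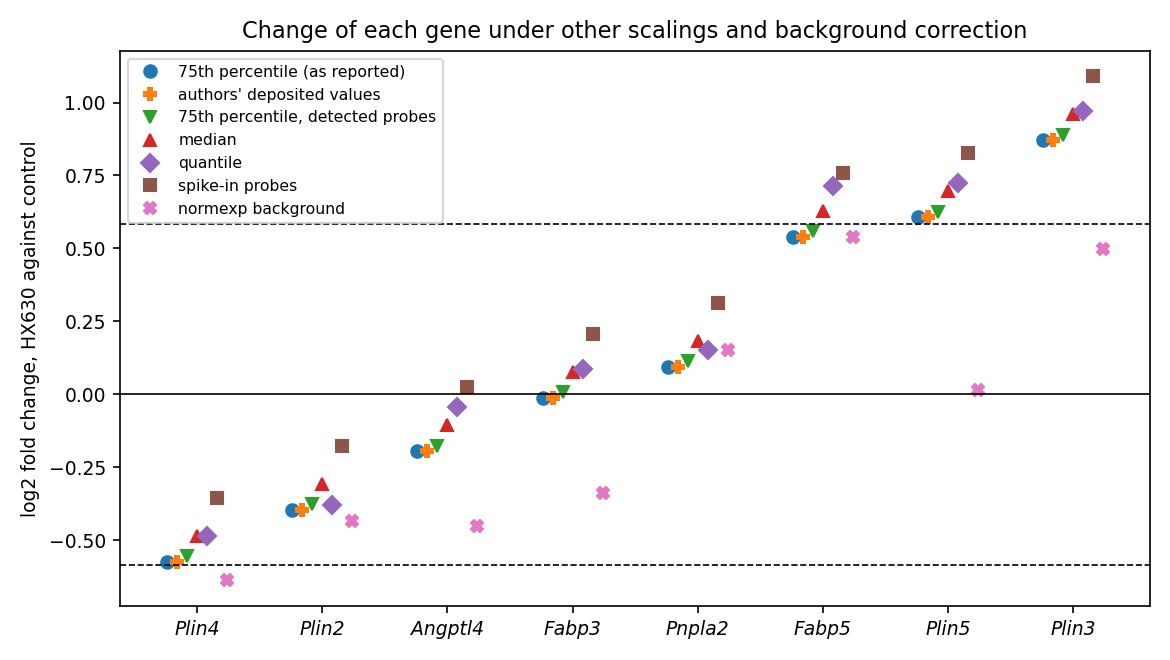
Log2 fold change of HX630 against control (y axis) for the 8 tested genes under 7 ways of scaling the arrays or removing background. Dashed lines mark the 1.5-fold limit. *Plin3* and *Plin5* lie above the limit under every setting but normexp, where they are at 0.50 and 0.02, and *Fabp5* lies near the limit throughout.

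The other genes of the pathway were 51, in 4 groups by role, with a probe for 50 and 42 tested. Of these 4 were called up (9.52%, against 8.38% of all genes tested) and 8 down (19.0%, against 11.2%). The share in either direction was 28.6%, against 19.5% of all genes tested, and the median log2 fold change was -0.21. Among the 16 genes of droplet coat and assembly, all tested, 5 fell (31.25%, against 11.2% of all genes tested) and 2 rose (12.5%, against 8.38%). Their median was -0.40. The fall took in *Dgat2*, which makes triglyceride (-0.84, limma adjusted p = 4.59e-05), and *Bscl2* (seipin), which shapes new droplets at the endoplasmic reticulum (-0.69, adjusted p = 4.52e-06). *Hilpda*, a small droplet protein that inhibits *Pnpla2* protein, fell by 0.73 (adjusted p = 7.68e-06), and its other probe fell by 0.75. *Cidea* fell by 0.73 (adjusted p = 2.25e-04) and *Cidec* by 0.81 (adjusted p = 0.00812), both of the CIDE family, which fuses droplets into larger ones. The *Cidec* call was lost when any of 6 of the 8 arrays was left out, with adjusted p up to 0.0247. *Soat1*, which esterifies cholesterol for storage, rose by 1.55 (adjusted p = 3.23e-05), and *Hsd17b11*, a droplet-bound dehydrogenase, by 0.98 (adjusted p = 1.20e-05). *Plin1*, the perilipin of fat cells, was at 0.12 (adjusted p = 0.596), and *Dgat1*, the other triglyceride synthase, was at -0.39 (adjusted p = 8.47e-05), under the fold limit.

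Of the 5 genes of lipolysis, all tested, 2 fell (40%, against 11.2% of all genes tested) and none rose (against 8.38%). *Mgll*, monoacylglycerol lipase, which completes the breakdown of triglyceride, fell by 1.93 on its brightest probe (SE 0.060, adjusted p = 2.47e-07). A further pair of its probes fell by 2.01 and 1.95, and the dimmest of the 4 was at -0.46 (adjusted p = 0.0559). *G0s2*, an inhibitor of *Pnpla2* protein, fell by 0.61 (adjusted p = 2.13e-05). *Abhd5*, the activator of the same lipase, was at -0.47 (adjusted p = 1.43e-04), under the fold limit, as were its other probes at -0.43 and -0.32.

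Fatty acid uptake, activation and binding was the only one of the 4 groups with a median above 0, at 0.32. Of its 20 genes, 15 were tested, 2 rose (13.3%, against 8.38% of all genes tested) and none fell (against 11.2%). In either direction 19.5% of all genes tested were called. Both that rose were further fatty acid binding proteins, *Fabp2*, the intestinal form (1.80, SE 0.058, adjusted p = 2.85e-07), and *Fabp7*, the brain form (1.28, SE 0.066, adjusted p = 2.06e-06). *Fabp2* read -3.13 to -2.93 in control and -1.31 to -1.15 with HX630, and *Fabp7* read -4.95 to -4.66 and -3.59 to -3.50. Over the whole family of 9, *Fabp3* and *Fabp5* included, 6 were tested, 3 of them higher and 3 lower with HX630. The lower ones were *Fabp3*, *Fabp6* (-0.22, adjusted p = 0.419) and *Fabp12* (-0.42, adjusted p = 0.00500, second probe -0.81), and none was called. The 5 acyl-CoA synthetases, which activate fatty acids, were at 0.26 to 0.47 on their brightest probes, and none passed the fold limit. A dimmer probe of *Acsl6* was at -0.53 (adjusted p = 6.19e-04) where the brighter was at 0.32. Of the 6 fatty acid transport proteins (*Slc27a* genes), 5 were tested, 4 of them lower and 1 higher, at -0.27 to 0.41 with a median of -0.23, and none was called.

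Among 10 partners and relatives of lipoprotein lipase, 9 had a probe and 6 were tested. The lipoprotein receptor *Vldlr* fell by 1.01 (adjusted p = 3.78e-07) and its other probe by 0.97, and no other gene of the group was called. That was 16.7% of the 6 tested, against 11.2% of all genes tested called down. Of the 6 PPAR and RXR receptor genes, counted apart from the 42, all were tested and *Ppard* fell by 0.78 (adjusted p = 8.65e-07), a call lost with spike-in scaling (-0.56). It was the 1 receptor gene called (16.7%, against 11.2% of all genes tested called down). *Ppara* was at -0.37 (adjusted p = 0.0261) and *Pparg* at -0.32 (adjusted p = 0.0314). *Rxrb* was at -0.33 (adjusted p = 5.14e-05), under the fold limit. *Rxra* was at 0.10 on the probe brighter over all arrays (adjusted p = 0.503) and -0.68 on the other (adjusted p = 0.00107), so its probes disagreed. That other probe met both limits for a call down and was the brighter in control (-3.66 against -3.93). *Rxrg* was at -0.19 (adjusted p = 0.0576), and at 0.24 on a dimmer probe (adjusted p = 0.686). The levels of these probes were far apart in control, at 0.36 and -6.67. By real-time PCR the authors found no *Rxrg* transcript in these cells, and what the brighter probe measured was not tested. With spike-in scaling, which lifts the median of all genes to 0.18, 8 of the 42 pathway genes were called up and 3 down, while the share of all genes called up went to 16.2% and that called down to 6.78%. These counts move with that shift and are not a further result. The 3 were *Dgat2*, *Mgll* and *Vldlr*, and the 8 were the 4 named above with *Acsl3*, *Acsl4*, *Dbi* and *Slc27a3*. With normexp (6.14% of all genes called up) 2 were called up, *Fabp2* (1.69) and *Acsl4* (0.66, adjusted p = 8.52e-05), while *Soat1* (0.50), *Hsd17b11* (0.26) and *Fabp7* (0.66, adjusted p = 0.0158) lost their calls.

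**Figure D5:**
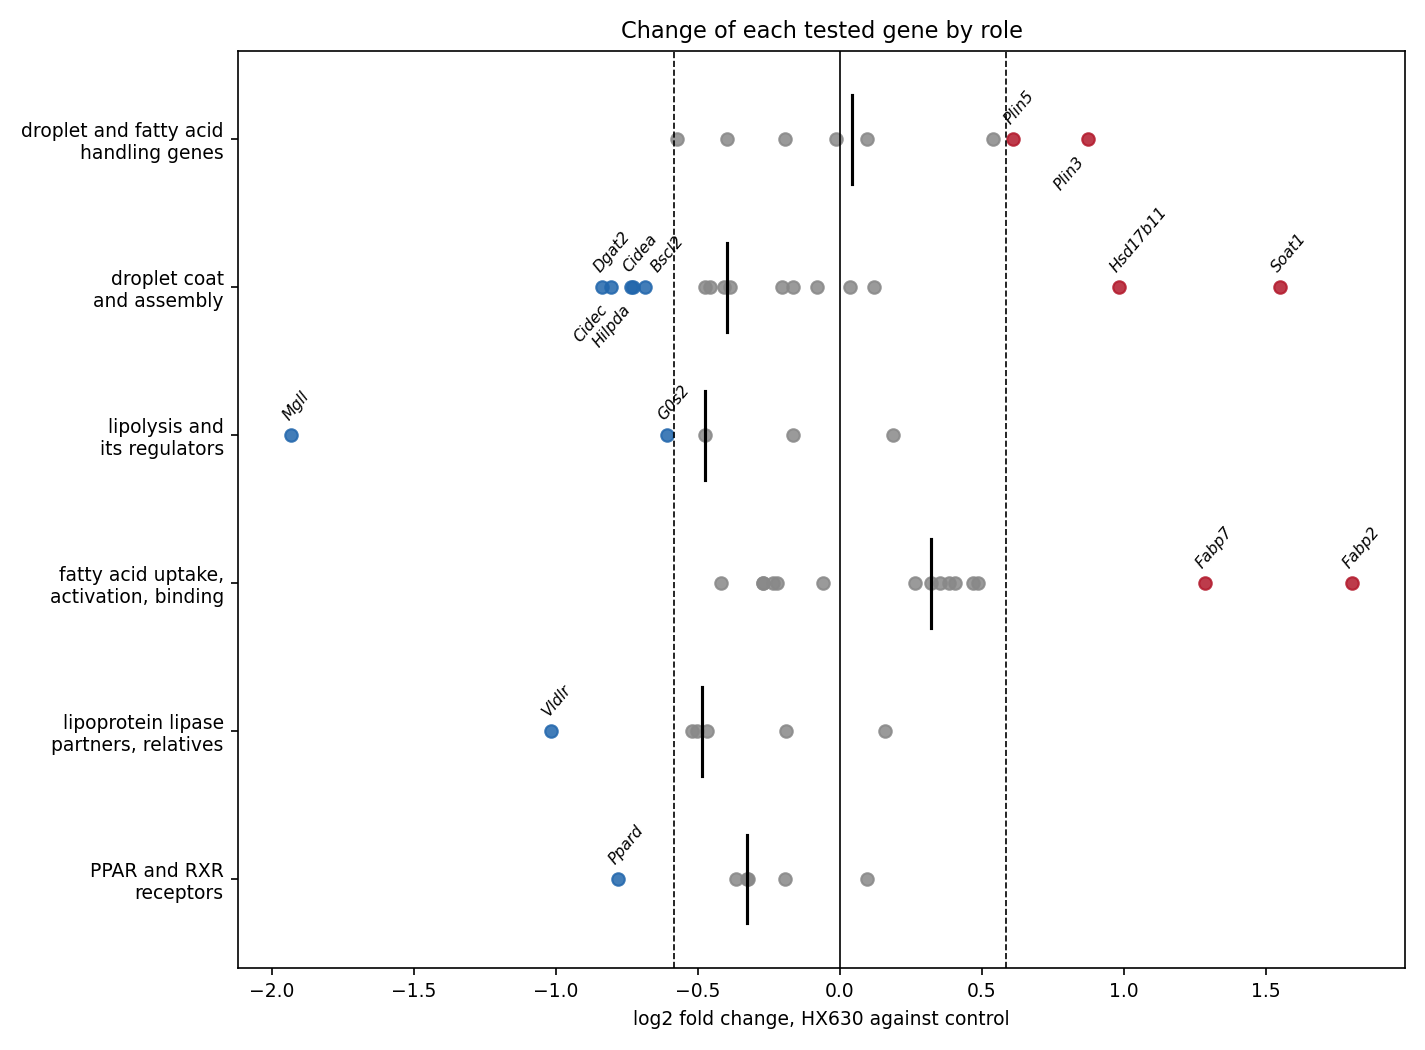
Log2 fold change of HX630 against control (x axis) for each tested gene, by role. Each point is a gene, vertical bars are medians of the group, dashed lines mark the 1.5-fold limit, and red and blue mark genes called up and down, which are named. *Fabp2* lies farthest to the right at 1.80 and *Mgll* farthest to the left at -1.93.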

How the data were processed

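Total RNA of AtT20 cells was hybridized to Agilent mouse arrays, with 4 control samples and 4 samples given HX630. The authors deposited for each array the output of Feature Extraction 10.7.3.1, whose processed intensity per spot is corrected for background, and a table of log2 values made in GeneSpring. Set against the arrays, the deposited log2 values were the log2 processed intensity minus the 75th percentile of the array. No column was left without a sample (0 unmapped).

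Values were computed in R 4.3.3 with limma 3.58.1. Of 44397 spots, 1377 controls and those flagged as outliers were removed, and replicate spots were averaged per probe (39429 probes, 26055 named through RefSeq accessions). The 28553 probes well above background on at least 4 of 8 arrays were tested on the log2 scale (lmFit, eBayes, Benjamini-Hochberg). A gene was represented by its brightest tested probe. The number of arrays limits the precision. Normexp (offset 16) was applied to median spot intensities. The fit was tested on simulated data.

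The 10 genes and all lists were chosen with earlier results of these data known. Of the other pathway genes, every called gene and a fixed set of 12 (*Plin1*, *Hilpda*, *G0s2*, *Abhd5*, *Dgat1*, *Dgat2* and the PPAR and RXR genes) are named, and further names were given after their values were seen. Alternatives were other scalings, background correction, filters, variance models, thresholds, the methods' t-test, the mean of a gene's probes, a replicate block, and leaving out 1 array at a time.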

Additional observations from a re-analysis of the deposited data

Results flagged for a closer look

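Of 78 groups of 4 arrays examined for a value apart from the rest, 3 held one, and chance gives about 1 in 20 groups, or 3.9 here. *Plin2* on HX630 replicate 1 was at -1.07 while the other HX630 arrays averaged -1.20, a gap of 0.907 of the group's range. A dim probe of *Rxrg* on control replicate 1 was at -8.18 against -6.16 for the other control arrays (0.913 of the range). Control replicate 1 also had the lowest mean correlation with its own group, 0.9945 against 0.9962 (0.946 of the range).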

How the results depend on the processing

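Of the 10 genes, 2 were called up and 0 down. With normexp 0 were called up, and 0 with a fold limit of 2. With an adjusted p under 0.05 and no fold limit, 2 were called down, *Plin2* and *Plin4*. Leaving out 1 array gave 1 to 2 called up and 0 to 1 called down. Other pathway genes called up numbered 8 with spike-in scaling, which shifts all genes up alike, 2 with normexp and 12 with no fold limit, and those called down numbered 3 with spike-in scaling, 20 with no fold limit and 2 with a fold limit of 2. The methods' t-test, at its own p of 0.01 and after Benjamini-Hochberg adjustment, called 2 of the 10 genes up and 0 down. Values that changed sign were small, apart from the difference between *Plin5* and *Pnpla2* (0.51 as reported above) and the probe mean of *Rxra*. *Fabp3* was at 0.086 with quantile, 0.076 with median, 0.0064 with detected-probe and 0.21 with spike-in scaling, 0.0010 with array weights and 0.16 as the mean of its probes, and from -0.10 to 0.036 with 1 array left out. *Angptl4* was at 0.025 and *Rxrg* at 0.026 with spike-in scaling. *Rxrg* was at 0.022 and *Rxra* at -0.29 as the mean of their probes. With normexp, *Plin1* was at -0.11, *Rxra* at -0.063 and the difference between *Plin5* and *Pnpla2* at -0.14. *Plin1* ran from -0.018 to 0.28 with 1 array left out. Scaling by 1 value per array moves every gene alike, by 0.22 with spike-in probes, and a mean over probes takes in those that disagreed. The cause of the other shifts was not tested.

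Same-numbered control and HX630 arrays deviated together with correlations of 0.52, -0.01, 0.24 and 0.38, so the numbers were not taken as pairs. With the replicate number as a block, 2 of the 10 genes were called up and 0 down. The 8 differences between genes, tested by flipping signs over 4 numbers, cannot go below p = 0.125 in an exact test and say nothing there.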
